A study of Mus musculus with 12 samples.

Results

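RNA-seq counts of 9 fibroblast growth factor (FGF) genes were described in wounds of diabetic mice: the ligands Fgf2, Fgf5, Fgf7, Fgf10, Fgf18 and Fgf22 and the receptors Fgfr1, Fgfr2 and Fgfr3. The genes were chosen by name from the 24062 genes counted, as ligands and receptors known from wound repair and the hair cycle, with earlier results of these data known. All 9 passed the filter that left 16267 genes for testing. Each of the 12 libraries came from the back-skin wound of a different C57BL/6 mouse made diabetic with streptozotocin, a toxin of the insulin-producing beta cells. The wounds fell into 4 groups of 3 by their treatment label: pre-MCS-01, post-MCS-01 and DSCG, set against blank. The series title calls MCS-01 a mast cell stabilizer, that is, a compound that holds mast cells from releasing their granules. Blank, the control group, also consisted of diabetic mice, so no wound of a non-diabetic animal entered any comparison. Dose, time after wounding, age and sex, and what pre and post refer to, are not given in the sources used here.

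FGFs are secreted proteins that bind receptor tyrosine kinases on neighbouring cells together with heparan sulfate on the cell surface, and the receptors pass the signal on mainly through the Ras and MAP kinase cascade. In skin, Fgf7 and Fgf10 are made chiefly by cells of the dermis and act on keratinocytes through a splice form of Fgfr2, a route known from wound closure. Fgf5, made in the growing hair follicle, ends the growth phase of the hair, and mice that lack it have long hair; Fgf18 is known from resting follicles, and Fgf22 from the inner root sheath. Fgf2 acts on fibroblasts and on vessel growth. In skin Fgfr1 is found mainly in the dermis, and Fgfr2 and Fgfr3 mainly in the epithelium.

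Libraries held between 3.84e+06 reads in genes (blank replicate 3) and 5.05e+07. In 3 of them (replicate 2 of pre-MCS-01, replicate 2 of DSCG and replicate 3 of blank), counts of long genes were low relative to the other libraries: the rank correlation of a gene's relative level with its exon length, a description across genes, was -0.385, -0.33 and -0.32 there, and between -0.0561 and 0.336 in the other 9. Keratinocyte and fibroblast markers, which define the labelled tissue, were abundant. The 6 basal keratinocyte markers summed to between 11086 and 24492 CPM (reads scaled to a common library size) over the 12 libraries, and the 7 fibroblast markers to between 11831 and 68372 CPM. In these whole-wound samples, fewer cells of a type and less RNA per cell cannot be told apart.

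The receptors were the most abundant of the 9 genes. Per kilobase of exon, and averaged over 12 libraries, Fgfr3 had a level of 21.8 ± 7.98 CPM per kilobase (SD, n = 12), followed by Fgfr1 at 17.0 ± 4.89 and Fgfr2 at 7.97 ± 2.19. Among the ligands the order was Fgf22 at 4.91 ± 2.55 CPM per kilobase, Fgf5 at 2.0 ± 2.34, Fgf7 at 1.86 ± 0.717, Fgf18 at 1.40 ± 0.630, Fgf10 at 0.426 ± 0.138 and Fgf2 at 0.117 ± 0.0742. Neighbours in this order overlapped across libraries, and Fgf5 and Fgf7 changed places when the longest transcript was used as the length. The level of Fgf5 had an SD larger than its mean, whereas for the receptors the SD was well under the mean.

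**Figure D1:**
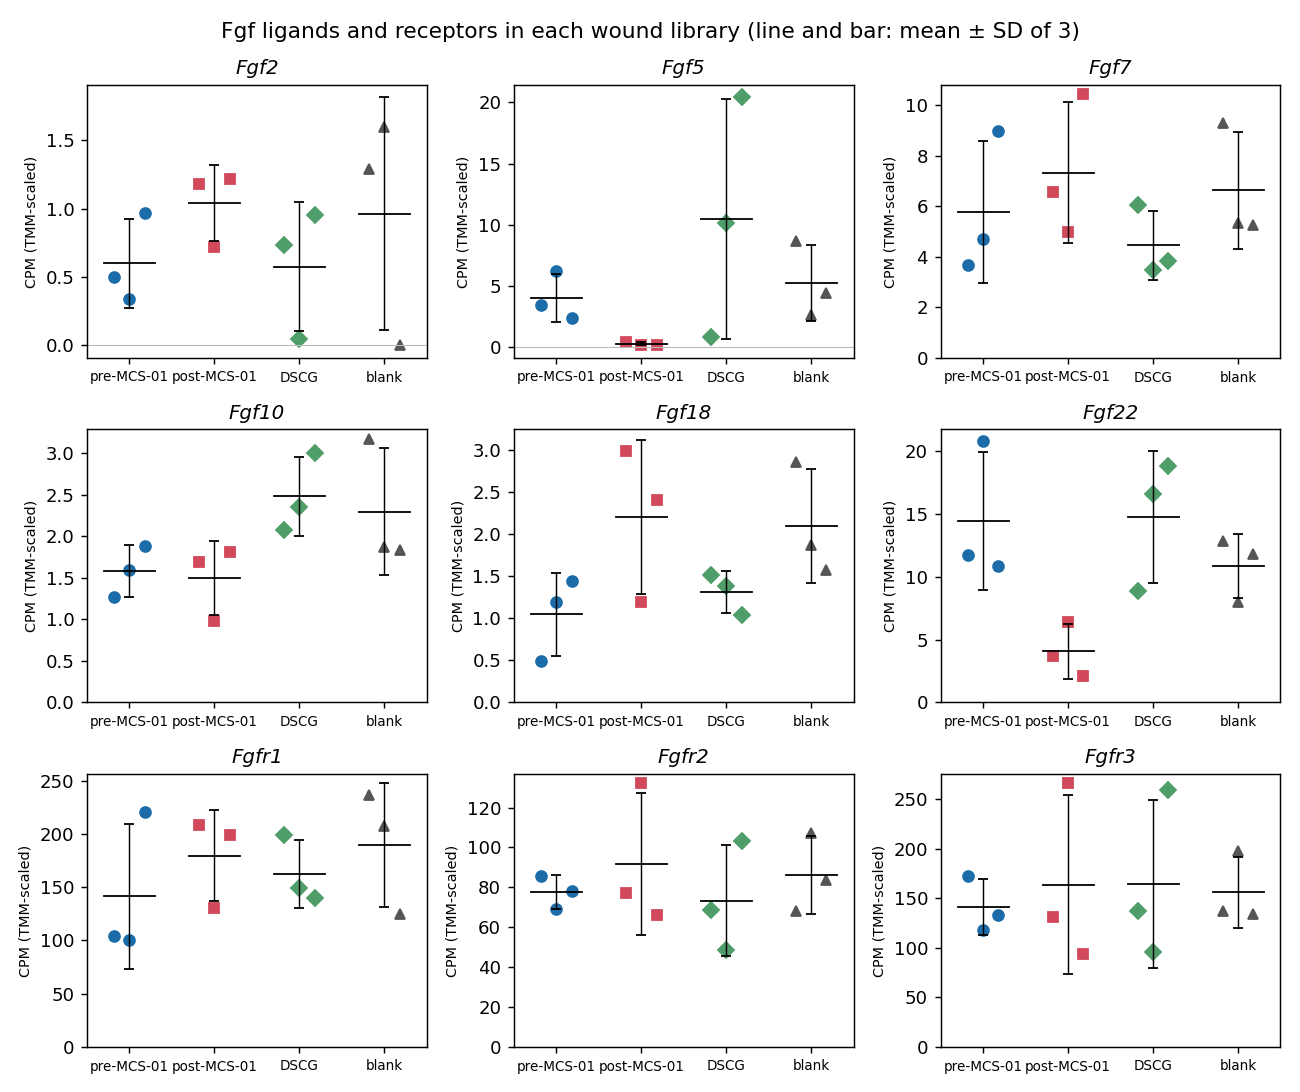
Level of each of the 9 genes in CPM (vertical axes, linear) in the 12 libraries, by group; points are libraries and the line and bar give the mean and SD of 3. Fgf5 and Fgf22 were lower in every post-MCS-01 library than in any other library, and the groups of each receptor overlapped.

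Of the 9 genes, Fgf5 alone passed the test between groups, with lower values in post-MCS-01 wounds against DSCG wounds. Fgf22 was lowest in the same wounds without passing, and the receptors, Fgf7 and Fgf2 overlapped in every pair of groups. Differences between groups were tested for all 6 pairs of groups with edgeR's quasi-likelihood test over all 16267 genes, and a gene was called at a Benjamini-Hochberg adjusted p under 0.05 with no minimum fold. For post-MCS-01 against DSCG, 1 of the 9 genes was called, Fgf5, where 1.06% of all genes were called (0.916% lower, 0.141% higher); 2 of the 9 had an unadjusted p under 0.05, where 11.3% of all genes did, and in 3 of the 9 the groups did not overlap, where this held for 15.4% of all genes. For pre-MCS-01 against post-MCS-01, 0 of the 9 were called by edgeR, where 0.824% of all genes were (0.805% higher, 0.0184% lower); 3 had an unadjusted p under 0.05 (10.2% of all genes) and 2 did not overlap (17.7%). DESeq2 called 2 of the 9 in each of these comparisons, and limma-voom called 0 in each. Limma-voom with library quality weights called 0 of the 9 for post-MCS-01 against DSCG and 4 for pre-MCS-01 against post-MCS-01. Of all 16267 genes, DESeq2 called 620 and 428 in the same order, and limma-voom 2 and 1. With library quality weights, limma-voom called 0 and 3818 of all genes.

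For post-MCS-01 against blank, edgeR called 0 of the 9 genes and 0% of all genes, with 2 of the 9 under an unadjusted p of 0.05 (9.35% of all genes) and 3 not overlapping (18.4%). For pre-MCS-01 against blank it called 0 of the 9 and 0% of all genes, with 1 of the 9 under an unadjusted p of 0.05 (7.24%) and 1 not overlapping (14.4%). DESeq2 called 1 and 0 of the 9 in this pair of comparisons, limma-voom 0 and 0, and limma-voom with quality weights 2 and 3. Of all genes, DESeq2 called 409 and 69, limma-voom 0 and 0, and limma-voom with quality weights 827 and 2485. For DSCG against blank and for pre-MCS-01 against DSCG, edgeR called 0 of the 9 genes and 0% of all genes. None of the 9 reached an unadjusted p of 0.05 in either of them (1.03% and 2.36% of all genes), 1 did not overlap in each (3.68% and 5.12%), and each of the other 3 tools called 0. Of all genes, DESeq2 called 0 and 17 in the same order, and limma-voom 0 in each with or without quality weights. A joint edgeR test of the 4 groups called 0 of the 9 genes and 0% of all genes, with 2 of the 9 under an unadjusted p of 0.05 (8.42%). DESeq2 called 2 of the 9, limma-voom 0 and limma-voom with quality weights 3, where of all genes they called 568, 1 and 2189.

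The median log2 fold change of the 9 genes was 0.14 for post-MCS-01 against DSCG (-0.01 over all genes), -0.24 for pre-MCS-01 against post-MCS-01 (0.03) and -0.41 for pre-MCS-01 against blank (0.04). It was -0.08 for post-MCS-01 against blank (-0.01), -0.22 for DSCG against blank (0 over all genes) and -0.20 for pre-MCS-01 against DSCG (0.03). Comparisons that share a group share its 3 libraries, and their values are not independent of each other.

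**Figure D2:**
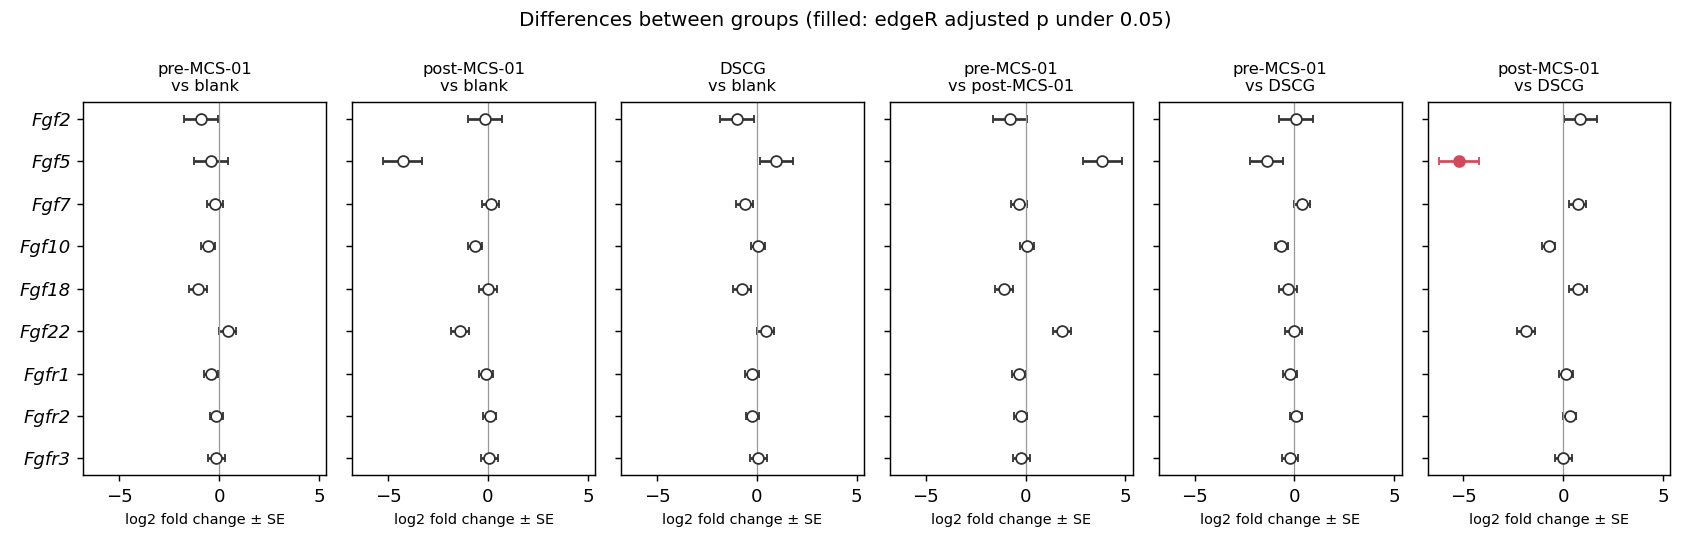
Log2 fold change (horizontal axes; positive means higher in the first-named group) of each of the 9 genes in the 6 comparisons, with bars of 1 standard error from edgeR. The filled point, Fgf5 in post-MCS-01 against DSCG at -5.24, is the only value with an adjusted p under 0.05.

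Fgf5 was the ligand that varied most. The 3 post-MCS-01 wounds had 0.428, 0.216 and 0.184 CPM, from 17, 9 and 8 reads. DSCG wounds had 0.861, 10.1 and 20.4 CPM, pre-MCS-01 wounds 3.48, 6.19 and 2.37 CPM, and blank wounds 8.66, 2.62 and 4.45 CPM. Every post-MCS-01 library lay below all 9 others, and DSCG replicate 1 was the lowest of these 9. By group mean the order was DSCG at 10.5 ± 9.78 CPM, blank at 5.25 ± 3.10, pre-MCS-01 at 4.02 ± 1.97 and post-MCS-01 at 0.276 ± 0.133 (SD, n = 3 each); the first 3 overlapped with their neighbours in this order.

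Fgf5 fell in post-MCS-01 against DSCG by 5.24 ± 1.00 on the log2 scale, which is 37.7-fold lower (edgeR adjusted p = 0.0376). Against blank, the difference of post-MCS-01 was -4.26 ± 0.98 (edgeR adjusted p = 0.113), and pre-MCS-01 over post-MCS-01 gave 3.85 ± 0.96 (edgeR adjusted p = 0.123). In the joint edgeR test of the 4 groups, Fgf5 did not pass (adjusted p = 0.201). The call against DSCG was lost in 9 of the 12 fits that left out 1 library (edgeR adjusted p 0.00114 to 0.191, log2 -5.78 to -4.28): those without pre-MCS-01 replicate 1 or 3, any post-MCS-01 library, DSCG replicate 2 or 3, or blank replicate 2 or 3. Without DSCG replicate 3 the difference was -4.28 (adjusted p = 0.106), and without the 3 libraries short of long genes it was -5.26 (adjusted p = 0.224). The call was also lost with limma-voom (adjusted p = 0.253), limma-voom with quality weights (0.207) and an edgeR fit of the compared groups only (0.18), and held with DESeq2 (3.31e-08). When DSCG replicate 1, which had the least Fgf5 of its group, was left out, the edgeR adjusted p was 0.00114 against DSCG, 0.00616 against blank and 0.00713 for pre-MCS-01 over post-MCS-01.

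Fgf22 had the same low group. Post-MCS-01 wounds had 3.68, 6.43 and 2.07 CPM, against 8.87, 16.5 and 18.8 CPM in DSCG wounds, 11.7, 20.8 and 10.9 CPM in pre-MCS-01 wounds and 12.8, 7.96 and 11.8 CPM in blank wounds. All 3 post-MCS-01 libraries were below the other 9, and DSCG, pre-MCS-01 and blank, with means of 14.8 ± 5.22, 14.5 ± 5.48 and 10.9 ± 2.55 CPM (SD, n = 3 each), overlapped. The log2 difference of post-MCS-01 was -1.86 ± 0.44 against DSCG (edgeR adjusted p = 0.0866) and -1.41 ± 0.44 against blank (adjusted p = 0.292), and pre-MCS-01 over post-MCS-01 was 1.83 ± 0.44 (adjusted p = 0.107). None of these edgeR values passed the threshold; without DSCG replicate 1 the value against DSCG did, at -2.12 (adjusted p = 0.0241). DESeq2 called Fgf22 against DSCG (adjusted p = 0.0024) and for pre-MCS-01 over post-MCS-01 (0.00489), and limma-voom with quality weights called it against blank (0.0169) and for pre-MCS-01 over post-MCS-01 (0.00302). Reads of Fgf22 and of Rnf126, on the opposite strand, share 82 bases, 3.65% of the exon length of Fgf22, and the strand setting of the counting is not given in the sources used here.

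The promoters of these ligands are shown with those of Fgf18 and Fgf7 because the first pair had one pattern over the groups and the second pair did not share it. Each is the 250-base stretch just before the RefSeq gene start in GRCm38.p6, printed on the gene's strand; that of Fgf22 is printed without its last 33 bases, which lie inside the GENCODE transcript. The stretches are Fgf5 at chr5:98253934-98254183, Fgf22 at chr10:79754859-79755075, Fgf18 at chr11:33147401-33147650 (minus strand) and Fgf7 at chr2:126034408-126034657. Capitals mark a CCAAT box (CCAAT, or ATTGG on the other strand) or a GC box (GGGCGG, or CCGCCC on the other strand).
Fgf5: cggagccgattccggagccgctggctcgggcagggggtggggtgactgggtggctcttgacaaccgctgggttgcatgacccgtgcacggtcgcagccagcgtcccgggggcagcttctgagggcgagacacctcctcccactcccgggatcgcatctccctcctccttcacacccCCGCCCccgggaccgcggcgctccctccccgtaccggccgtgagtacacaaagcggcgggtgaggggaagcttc
Fgf22: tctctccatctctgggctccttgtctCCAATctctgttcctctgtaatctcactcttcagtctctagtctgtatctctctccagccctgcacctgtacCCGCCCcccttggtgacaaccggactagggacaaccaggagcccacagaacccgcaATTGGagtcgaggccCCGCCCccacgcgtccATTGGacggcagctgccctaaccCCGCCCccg
Fgf18: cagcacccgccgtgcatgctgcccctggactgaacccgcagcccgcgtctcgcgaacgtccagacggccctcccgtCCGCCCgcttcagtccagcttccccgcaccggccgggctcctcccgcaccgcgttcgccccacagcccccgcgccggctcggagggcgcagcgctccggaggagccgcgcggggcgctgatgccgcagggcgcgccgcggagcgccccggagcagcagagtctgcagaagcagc
Fgf7: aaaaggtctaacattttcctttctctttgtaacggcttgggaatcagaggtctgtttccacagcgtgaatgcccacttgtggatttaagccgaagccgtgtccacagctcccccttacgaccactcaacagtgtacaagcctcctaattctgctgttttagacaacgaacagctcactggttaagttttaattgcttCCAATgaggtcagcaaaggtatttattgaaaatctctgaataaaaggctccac
The Fgf22 stretch holds 3 CCAAT boxes and 3 GC boxes, those of Fgf5 and Fgf18 hold 1 GC box each, and that of Fgf7 holds 1 CCAAT box. Among 32851 RefSeq promoters searched the same way on both strands over 250 bases, 33.8% held a CCAAT box and 32.7% a GC box. Neither a TATA box (TATAAA, in 12.4% of promoters) nor the letters CTTTGA of TCF and LEF factors (in 13.8%) occurs in the 4 stretches. GC content of the whole 250-base windows was 70.8% for Fgf5, 62.4% for Fgf22, 77.2% for Fgf18 and 43.6% for Fgf7, where the median of all promoters was 52.4%. These matches describe letters only and differ between Fgf5 and Fgf22, the ligands with the like pattern.

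Hair shaft and root sheath genes moved with Fgf5 and Fgf22, while the summed markers of other follicle parts did not set post-MCS-01 apart from pre-MCS-01 and DSCG. The outer root sheath and bulge sum did set post-MCS-01 apart from blank. A list of 15 hair shaft and root sheath genes (hair keratins such as Krt31 and Krt85, inner root sheath keratins such as Krt25 and Krt71, and Tchh, Padi3, Hoxc13 and Foxn1) summed to 116, 78 and 103 CPM in post-MCS-01 wounds. The sums were 2065, 34319 and 42036 CPM in DSCG wounds, 13385, 33118 and 13160 CPM in pre-MCS-01 wounds and 20831, 7023 and 7917 CPM in blank wounds. The post-MCS-01 sums lay below all others, and Krt33b, Krt34 and Krt85 had no read in post-MCS-01 replicate 2. DSCG replicate 1, which had the lowest Fgf5 and Fgf22 of its group, also had the lowest sum of hair genes outside post-MCS-01. The 7 outer root sheath and bulge markers summed to 565 to 894 CPM in post-MCS-01, against 562 to 1277 CPM in DSCG and 1067 to 2080 CPM in blank, with 547 to 1110 CPM in pre-MCS-01. Every post-MCS-01 sum of these markers was below every blank sum. The list was led by Krt15 and Cd34, with means of 648 and 131 CPM over the 12 libraries. The 7 dermal papilla markers summed to 24.6 to 34.2 CPM in post-MCS-01, against 14.7 to 51.7 CPM in DSCG and 26.5 to 34.8 CPM in blank, with 30.6 to 53.2 CPM in pre-MCS-01.

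By edgeR, 14 of the 15 hair genes were called lower in post-MCS-01 against DSCG (median log2 -8.98) and 13 were called higher for pre-MCS-01 against post-MCS-01 (median 8.72), where 0.916% and 0.805% of all genes were called in those directions. The hair list was chosen with earlier results of these data known, so its counts beside all genes are a description only. Limma-voom called 1 of the 15 in each of these comparisons, DESeq2 called 14 in each, and limma-voom with quality weights called 0 against DSCG and 15 for pre-MCS-01 against post-MCS-01. Of all genes, limma-voom called 2 and 1 in the same order, DESeq2 620 and 428, and limma-voom with quality weights 0 and 3818. With edgeR, no gene of any kind was called in either comparison on leaving out any post-MCS-01 library or blank replicate 3. The same held without the 3 libraries short of long genes. Against DSCG it also held without DSCG replicate 2 or 3 and with the compared groups only. For pre-MCS-01 against post-MCS-01 it also held without pre-MCS-01 replicate 2. In those fits none of the 15 hair genes was called. For post-MCS-01 against blank the median was -7.62, and 0 of the 15 passed with edgeR, with 14 under an unadjusted p of 0.05 (9.35% of all genes). DESeq2 called 14 of the 15, limma-voom 0 and limma-voom with quality weights 14, where of all genes they called 409, 0 and 827. The part of hair follicle content in the Fgf5 and Fgf22 values was not tested. Within DSCG, pre-MCS-01 and blank, both ligands followed the order of the hair sum over the 3 libraries, and within post-MCS-01 neither did in full: Fgf22 was highest in replicate 2, which had the lowest hair sum.

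**Figure D3:**
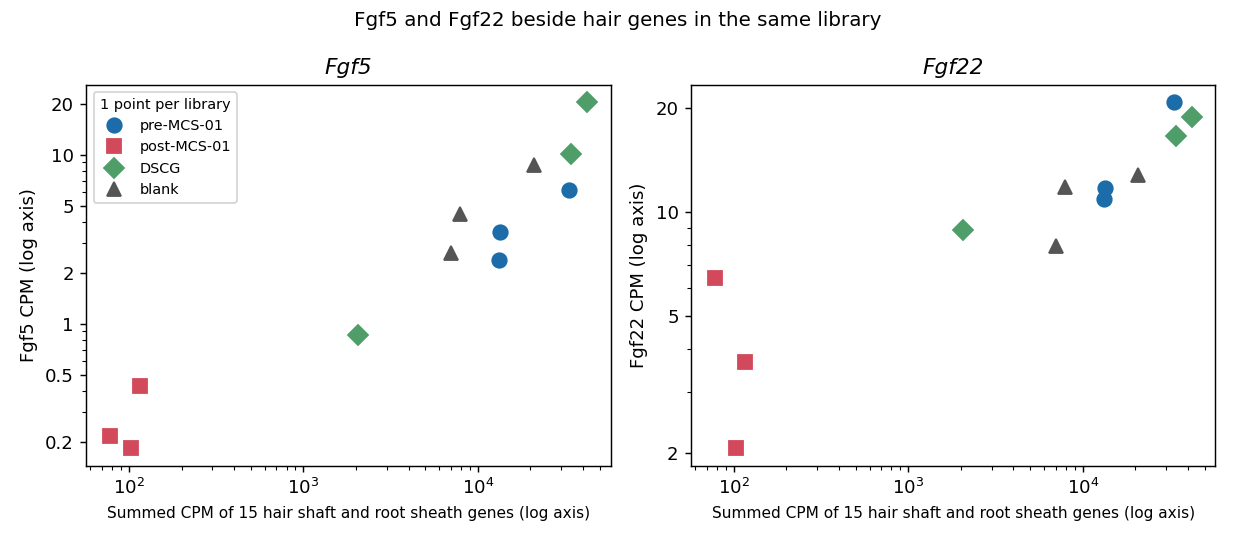
Fgf5 (left) and Fgf22 (right) in CPM against the summed CPM of 15 hair shaft and root sheath genes, all on log axes, with 1 point per library. Post-MCS-01 libraries lie at the lower left of each panel, and DSCG replicate 1, with 2065 CPM of hair genes, lies between them and the other libraries along the hair axis and in Fgf5, but not in Fgf22, where blank replicate 2 is lower.

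Fgf18 had a different order of groups. Pre-MCS-01 wounds had 0.497, 1.19 and 1.45 CPM and DSCG wounds 1.52, 1.38 and 1.04 CPM, against 2.86, 1.87 and 1.57 CPM in blank wounds, and post-MCS-01 wounds had 3.00, 1.20 and 2.41 CPM. All pre-MCS-01 and DSCG libraries lay below every blank library, and post-MCS-01 spanned most of the range. The lowest blank value, 1.57 CPM in replicate 3, came from 6 reads in the library of least depth, against 1.52 CPM in DSCG replicate 1. The log2 difference from blank was -1.05 ± 0.46 for pre-MCS-01 (edgeR adjusted p = 0.68) and -0.73 ± 0.46 for DSCG (adjusted p = 0.999). Pre-MCS-01 over post-MCS-01 gave -1.07 ± 0.45 (edgeR adjusted p = 0.448), with groups that overlapped. None of these passed with edgeR. Limma-voom with quality weights called Fgf18 for pre-MCS-01 against blank (log2 -1.97, adjusted p = 0.0142) and against post-MCS-01 (log2 -2.18, adjusted p = 0.00296).

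Fgf10, the dermal ligand of the keratinocyte form of Fgfr2, had its highest mean in DSCG, at 2.48 ± 0.478 CPM, against 2.29 ± 0.764 CPM in blank (SD, n = 3 each). Its values were 2.08, 2.35 and 3.01 CPM in DSCG wounds, against 3.18, 1.87 and 1.83 CPM in blank wounds; pre-MCS-01 wounds had 1.27, 1.59 and 1.89 CPM and post-MCS-01 wounds 1.69, 0.984 and 1.81 CPM. Every DSCG library was above every library of the MCS-01 groups, and all post-MCS-01 libraries were below blank. The lowest blank value, 1.83 CPM in replicate 3, came from 7 reads in the library of least depth, against 1.81 CPM in post-MCS-01 replicate 3. The log2 difference was -0.65 ± 0.34 for pre-MCS-01 against DSCG (edgeR adjusted p = 1), -0.73 ± 0.34 for post-MCS-01 against DSCG (adjusted p = 0.452) and -0.65 ± 0.35 for post-MCS-01 against blank (adjusted p = 0.613). None passed the threshold.

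Fgf7, the keratinocyte growth factor, overlapped in every pair of groups. Post-MCS-01 wounds had 6.58, 4.99 and 10.4 CPM, pre-MCS-01 wounds 3.68, 4.69 and 8.97 CPM, DSCG wounds 6.03, 3.49 and 3.81 CPM and blank wounds 9.27, 5.34 and 5.24 CPM. The highest library of each MCS-01 group was replicate 3, and of DSCG and blank replicate 1. The largest difference in size was 0.72 ± 0.41 on the log2 scale, for post-MCS-01 over DSCG (edgeR adjusted p = 0.553).

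Fgf2 had the lowest level per kilobase of the 9 genes as a mean over 12 libraries. In each post-MCS-01 library Fgf5 was below Fgf2, at 0.171, 0.0863 and 0.0734 CPM per kilobase against 0.175, 0.106 and 0.179, with ranges that overlapped. Values of Fgf2 were 0.497, 0.341 and 0.966 CPM in pre-MCS-01 wounds, 1.18, 0.72 and 1.22 CPM in post-MCS-01 wounds, 0.735, 0.0440 and 0.953 CPM in DSCG wounds and 1.29, 1.60 and 0 CPM in blank wounds. The 0 in blank replicate 3 was a library where 3 reads, the limit that a count of 0 allows, correspond to 0.786 CPM, and the value of DSCG replicate 2 came from 2 reads. In each of the 3 groups that held a library short of long genes, that library had the lowest Fgf2. The Fgf2 differences between groups ran from -0.99 to 0.85 on the log2 scale with standard errors of 0.83 to 0.85, and the lowest edgeR adjusted p was 0.734. Fgf2 shares 640 bases, 9.44% of its exon length, with Nudt6 on the opposite strand.

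The receptors differed little between groups by edgeR. Fgfr1 had 104, 100 and 220 CPM in pre-MCS-01 wounds, 208, 130 and 199 CPM in post-MCS-01 wounds, 199, 149 and 140 CPM in DSCG wounds and 236, 208 and 125 CPM in blank wounds. Fgfr2 had 85.8, 69.2 and 77.9 CPM in pre-MCS-01 wounds, 77.1, 133 and 66.0 CPM in post-MCS-01 wounds, 68.4, 48.5 and 103 CPM in DSCG wounds and 68.1, 107 and 83.6 CPM in blank wounds. Fgfr3 had 172, 118 and 133 CPM in pre-MCS-01 wounds, 131, 266 and 93.9 CPM in post-MCS-01 wounds, 137, 96.0 and 259 CPM in DSCG wounds and 137, 197 and 134 CPM in blank wounds.

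No receptor separated any pair of groups. Over the 3 receptors and 6 comparisons, the 18 log2 differences ran from -0.42 to 0.33 with standard errors of 0.32 to 0.42, and the lowest edgeR adjusted p was 0.733. Limma-voom with quality weights called 4 of the 9 genes for pre-MCS-01 against post-MCS-01, among them Fgf5, Fgf22 and Fgf18. Its values for the receptors are not reported here. The library short of long genes was the lowest of its group in 3 of 3 groups for Fgfr3 and in 2 of 3 for Fgfr1 and Fgfr2. The counts are per gene, so the splice forms of a receptor that choose between ligands were not separated, and 314 bases of Fgfr2, 3.04% of its exon length, are shared with Ctbp2 on the same strand.

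The epithelial receptors varied together from wound to wound. The ratio of Fgfr3 to Fgfr2 counts lay between 1.42 and 2.51 in the 12 libraries, a 1.76-fold spread, while the ratio of Fgfr1 to Fgfr2 lay between 0.984 and 3.47, a 3.53-fold spread. Post-MCS-01 replicate 2 had the highest Fgfr2 and Fgfr3 of all libraries, and DSCG replicate 3 was next highest for Fgfr3. In post-MCS-01 replicate 2, Fgfr1 was at 130 CPM, the lowest of its group.

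**Figure D4:**
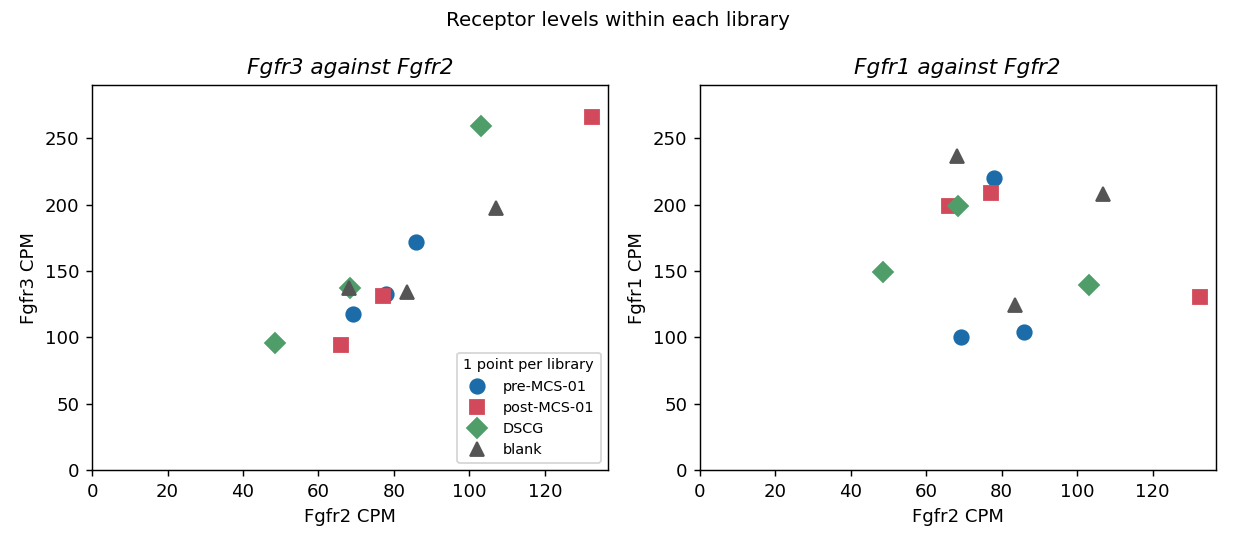
Fgfr3 (left) and Fgfr1 (right) against Fgfr2, in CPM on linear axes, with 1 point per library and groups by colour and shape. Fgfr3 lay higher where Fgfr2 was higher, with count ratios of 1.42 to 2.51, and Fgfr1 did not follow Fgfr2.

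Genes of similar pattern were named by the smallest root mean square difference of mean-centred log2 CPM over the 12 libraries, among 15173 tested genes. For Fgf5 these were Stox1 (difference 0.45) and Ggt1 (0.54), where the root mean square of Fgf5 around its own mean was 2.02, and for Fgf22 they were Gng4 (0.27) and Capn12 (0.33), where that of Fgf22 was 0.92. For Fgf18 they were C1qtnf7 and Lrrc27 (0.30 each), for Fgf10 Apbb1 (0.19) and Myh7b (0.20), for Fgf7 Ppic and Spats2l (0.26 each), and for Fgf2 Sox2 (0.24) and Tcf24 (0.46). Fgf2 and Sox2 both had no read in blank replicate 3, the library of least depth, and the part of this in their likeness was not tested. For Fgfr1 the nearest was Plod1 (0.12), an enzyme of collagen modification. For Fgfr2 they were Dsc3 (0.13), a desmosomal cadherin of stratified epithelium, and Vps13a (0.16), and for Fgfr3 Marveld3 (0.17), a tight junction protein, and Map7 (0.19). Among the 9 genes, Fgfr2 and Fgfr3 were the closest pair at 0.20, followed by Fgf7 and Fgfr1 at 0.34, while Fgf5 and Fgf22 were 1.28 apart, with the wider range in Fgf5. These likenesses describe 12 libraries that share treatment groups.

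Of the rest of the FGF pathway, 78 genes in 6 lists were followed and 71 of them tested; Fgf4, Fgf6, Fgf8, Fgf15, Fgf17, Fgf20 and Kl were too low. The only call was Fgfbp1, a secreted carrier that frees FGFs from the matrix, which rose in post-MCS-01 to 173, 191 and 128 CPM, against 82.0, 53.8 and 60.8 CPM in DSCG. The log2 difference was 1.32 ± 0.23, or 2.50-fold (edgeR adjusted p = 0.0323), and pre-MCS-01 wounds had 98.6, 142 and 116 CPM and blank wounds 84.3, 91.3 and 103 CPM. The call was lost on leaving out any 1 of the 3 post-MCS-01 libraries, DSCG replicate 2 or 3, or blank replicate 2 or 3 (adjusted p up to 0.168), and without the 3 libraries short of long genes (adjusted p = 0.196). It was also lost with limma-voom (adjusted p = 0.136), limma-voom with quality weights (0.0784) and an edgeR fit of the compared groups only (0.161).

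Over the 71 genes, unadjusted edgeR p values under 0.05 were found for 3 higher and 4 lower in post-MCS-01 against DSCG, and for 2 higher and 1 lower in pre-MCS-01 against post-MCS-01. They were found for 4 higher and 5 lower in post-MCS-01 against blank, 2 higher and 5 lower in pre-MCS-01 against blank, 1 lower in DSCG against blank, and 2 higher and 1 lower in pre-MCS-01 against DSCG. These are 9.86%, 4.23%, 12.7%, 9.86%, 1.41% and 4.23% of the 71 genes in the same order, where the shares of all genes were 11.3%, 10.2%, 9.35%, 7.24%, 1.03% and 2.36%. For post-MCS-01 against DSCG, where edgeR called 1 of the 71 (1.06% of all genes), DESeq2 called 4, limma-voom 0 and limma-voom with quality weights 0. Of all 16267 genes, the latter 3 tools called 620, 2 and 0. For the 5 other comparisons, edgeR called 0 of the 71. DESeq2 called 1, 3, 1, 0 and 0 of them in the order just given, limma-voom 0 in each, and limma-voom with quality weights 21, 6, 13, 0 and 0. Of all 16267 genes, DESeq2 called 428, 409, 69, 0 and 17 in that order. Limma-voom called 1, 0, 0, 0 and 0 of all genes, and limma-voom with quality weights 3818, 827, 2485, 0 and 0.

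Among the other ligands, Fgf3 had 2 reads in each post-MCS-01 library, against 5, 37 and 32 reads in DSCG, a log2 difference of -3.41 ± 0.74 (edgeR adjusted p = 0.057), and the groups did not overlap. Fgf23, a hormone of phosphate balance made mainly in bone, had 97, 63 and 357 reads in post-MCS-01, against 1, 13 and 1 reads in blank (log2 4.70 ± 1.52, edgeR adjusted p = 0.31), with 147 reads in DSCG replicate 2 and at most 18 in each other library. Scaled to library size, Fgf23 was at 2.44, 1.51 and 8.19 CPM in post-MCS-01 and at 0.0196, 0.27 and 0.262 CPM in blank. The Fgf23 difference was 3.66 without post-MCS-01 replicate 3 and 6.49 without blank replicate 2, and it was called by DESeq2 (adjusted p = 0.014) and by limma-voom with quality weights (adjusted p = 0.0196). Klb, a co-receptor for endocrine FGFs found in fat, averaged 0.193 ± 0.0843 CPM in post-MCS-01 wounds, against 0.821 ± 0.389 CPM in blank (SD, n = 3 each; edgeR adjusted p = 0.197). The Klb mean was 0.224 ± 0.0918 CPM in pre-MCS-01 wounds and 0.450 ± 0.180 CPM in DSCG wounds. The 5 adipocyte markers summed to between 91.3 and 290 CPM in post-MCS-01, against 386 to 701 CPM in blank, and their part in the Klb value was not tested.

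Gpc3, a heparan sulfate carrier of the cell surface, averaged 34.2 ± 9.41 CPM in post-MCS-01 wounds, against 79.4 ± 18.9 CPM in blank (log2 -1.21 ± 0.28, edgeR adjusted p = 0.115). Map2k1, the MAP kinase kinase MEK1, averaged 134 ± 45.8 CPM in post-MCS-01 wounds, against 64.4 ± 21.5 CPM in DSCG (log2 1.05 ± 0.34, edgeR adjusted p = 0.232). Among the target genes, Ccnd1 averaged 118 ± 41.5 CPM in pre-MCS-01 wounds, against 67.7 ± 12.5 CPM in post-MCS-01 (edgeR adjusted p = 0.447), and Myc averaged 80.9 ± 5.88 CPM in pre-MCS-01 wounds, against 52.9 ± 6.93 CPM in DSCG (adjusted p = 1). The Myc mean was 78.6 ± 6.20 CPM in post-MCS-01 wounds and 56.7 ± 5.39 CPM in blank wounds. None of these passed the threshold. For the 16 targets and feedback inhibitors tested, the median log2 difference was 0.05 for post-MCS-01 against DSCG and -0.11 for post-MCS-01 against blank, where the median of all genes was -0.01 in each.

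The remaining genes named by the same rule did not pass either. Hras averaged 338 ± 152 CPM in pre-MCS-01 wounds, against 213 ± 11.6 CPM in post-MCS-01 (edgeR adjusted p = 0.509), and Gpc6 averaged 8.87 ± 4.30 CPM in pre-MCS-01 wounds, against 15.8 ± 6.50 CPM in blank (adjusted p = 0.687). Of the intracellular FGF homologous factors, which act on sodium channels and are not secreted, Fgf13 averaged 2.16 ± 0.342 CPM in pre-MCS-01 wounds, against 3.44 ± 0.666 CPM in post-MCS-01 (adjusted p = 0.588). Fgf14 averaged 0.330 ± 0.273 CPM in pre-MCS-01 wounds, against 0.739 ± 0.417 CPM in blank (adjusted p = 0.69).

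**Figure D5:**
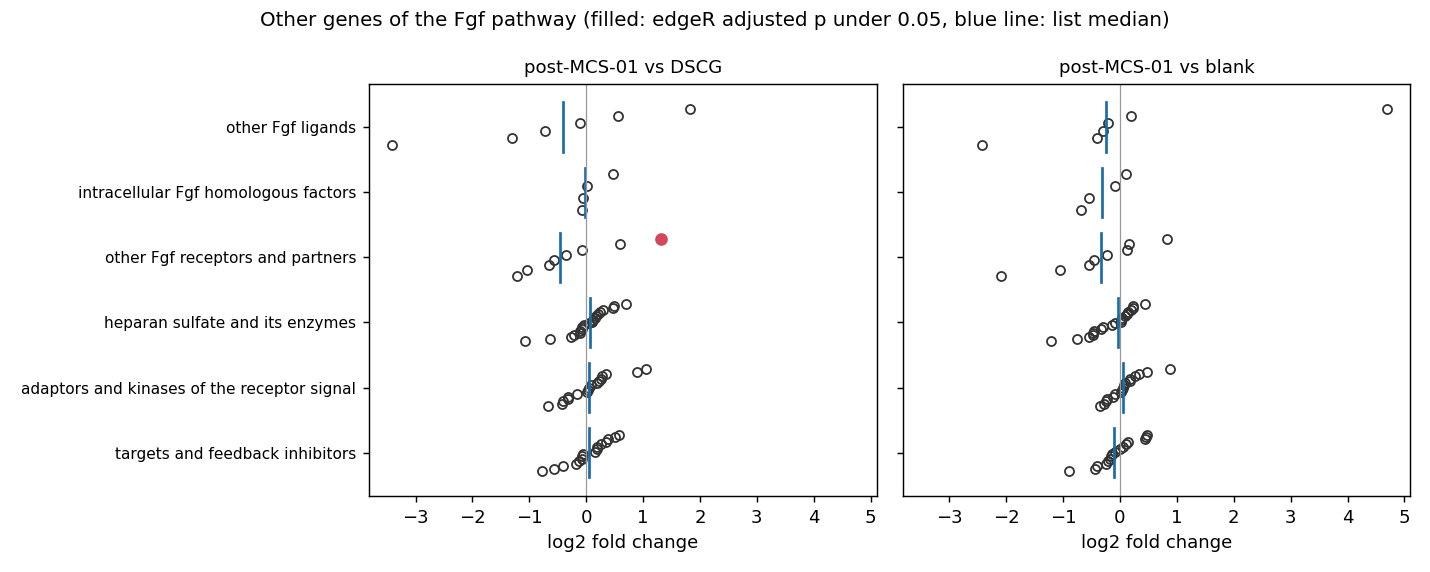
Log2 fold change (horizontal axes; positive means higher in post-MCS-01) of 71 other FGF pathway genes in 6 lists, against DSCG (left) and against blank (right); each circle is a gene and the blue line the list median. The filled circle is Fgfbp1 at 1.32, and the far circles among the other ligands are Fgf3 at -3.41 on the left and Fgf23 at 4.70 on the right.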

How the data were processed

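Per the labels' protocols, RNA came from frozen wounds by a miRNeasy kit, and the libraries were Illumina TruSeq. The values deposited by the authors are raw counts, 1 table for each library with genes by symbol, and the submitters' processing notes name FastQC, TopHat2, Bowtie2, HTSeq, limma and mm10; versions, the annotation and the strand setting are not given in the sources used here. Reads outside genes came to 5.64 to 9.16% of those in genes and were left out. Samples were grouped by the treatment label, 3 mice each, and replicates carry no pairing.

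Low-count genes were removed with filterByExpr (edgeR 4.0.16, R 4.3.3), libraries were TMM-scaled (0.905 to 1.07), and 1 model with a mean per group was fitted to all 12 libraries (glmQLFit, glmQLFTest, two-sided; biological coefficient of variation 0.347). Errors of fold changes are standard errors. Log2 CPM used a prior count of 2. Exon lengths and overlaps came from GENCODE M21 and promoters from RefSeq, which held 8 of the 9 genes. The fit was tested on simulated counts. The limit given for a count of 0 covers counting error only.

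The 9 genes and all lists were chosen with earlier results of these data known. A fold change of one of the 9 is printed where its unadjusted p is under 0.05 or its groups do not overlap; of each pathway list, called genes or else the 2 with the smallest joint p are named, each in its comparison of smallest p. Of the genes named for a similar pattern, 2 for each of the 9, 1 is not reported here. Alternatives were RLE or total-count scaling, no filter, DESeq2 1.42.0, limma-voom (limma 3.58.1) with and without quality weights, a fit of the compared groups only, leaving out 3 libraries, and leaving out each library in turn.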

Additional observations from a re-analysis of the deposited data

How the results depend on the processing

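The 12 fold changes of the 9 genes printed by the naming rule, and those of the named pathway genes, kept their direction in every alternative run; other differences and the medians were not recomputed. Counts of the 9 genes called moved as follows. DESeq2 called 1 for post-MCS-01 against blank, 2 for pre-MCS-01 against post-MCS-01, 2 for post-MCS-01 against DSCG and 2 in the joint test; limma-voom with quality weights called 3 for pre-MCS-01 against blank, 2 for post-MCS-01 against blank, 4 for pre-MCS-01 against post-MCS-01, 0 for post-MCS-01 against DSCG and 3 in the joint test. Fitting only the compared groups gave 1 for post-MCS-01 against blank, 1 for pre-MCS-01 against post-MCS-01 and 0 for post-MCS-01 against DSCG, where limma-voom and the fit without 3 libraries also gave 0. Leaving out 1 library gave 0 to 1 for post-MCS-01 against blank, for pre-MCS-01 against post-MCS-01 and in the joint test, 0 to 2 for post-MCS-01 against DSCG and 0 in the other comparisons.

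Over all genes, for pre-MCS-01 against blank, post-MCS-01 against blank, pre-MCS-01 against post-MCS-01, pre-MCS-01 against DSCG, post-MCS-01 against DSCG and the joint test, edgeR called 0, 0, 134, 0, 172 and 0. DESeq2 called 69, 409, 428, 17, 620 and 568, and limma-voom with quality weights 2485, 827, 3818, 0, 0 and 2189. Limma-voom called 1 for pre-MCS-01 against post-MCS-01, 2 for post-MCS-01 against DSCG and 1 in the joint test. The compared groups alone gave 2 for pre-MCS-01 against blank, 255 for post-MCS-01 against blank and 0 for post-MCS-01 against DSCG, and no filter gave 37 for post-MCS-01 against blank. Without 3 libraries, pre-MCS-01 against post-MCS-01 and post-MCS-01 against DSCG gave 0 each. Leaving out 1 library gave 0 to 222 for post-MCS-01 against blank, 0 to 254 for pre-MCS-01 against post-MCS-01, 0 to 606 for post-MCS-01 against DSCG, 0 to 273 in the joint test and 0 otherwise. The causes were not tested.

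Fgf5 in post-MCS-01 against DSCG passed the threshold in 7 of 20 alternatives, at log2 -5.78 to -3.68 and adjusted p 3.31e-08 to 0.253. With the longest transcript as length, levels were 33.4 CPM per kilobase for Fgfr1, 18.6 for Fgfr2 and 36.8 for Fgfr3. Fewer than 20 reads of Fgf5 in each post-MCS-01 library, and the depth of blank replicate 3, limit the low ligands. No paired analysis was possible because replicate numbers follow the order of the records and the labels tie no mice across groups.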

Other observations

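Fgf7 and Fgf10 signal through the same keratinocyte receptor form, and their ratio was singled out after its values were seen and was not tested. The ratio of Fgf7 to Fgf10 counts, which does not depend on library scaling, was 3.90, 5.07 and 5.75 in post-MCS-01 wounds, against 2.90, 1.49 and 1.27 in DSCG wounds and 2.92, 2.86 and 2.86 in blank wounds. In pre-MCS-01 wounds it was 2.90, 2.95 and 4.76. The ratio of blank replicate 3, 2.86, came from only 20 reads of Fgf7 and 7 of Fgf10, in the library of least depth. The post-MCS-01 ratios lay above all DSCG and blank ratios and overlapped with pre-MCS-01. The macrophage and neutrophil markers, a list of 6 genes, summed to 5826, 10207 and 4935 CPM in post-MCS-01 wounds, against 4096, 1099 and 258 CPM in DSCG wounds and 1161, 891 and 1168 CPM in blank wounds, with 6535, 4525 and 4257 CPM in pre-MCS-01 wounds. The list was led by S100a9 and S100a8, with means of 2236 and 1131 CPM over the 12 libraries, so high sums mainly reflect these genes. The part of the 6 markers in the ratio was not tested.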
